A study of Mus musculus with 8 samples.

Results

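Sntg1, Hopx, Car3 and Asb18 were 4 genes with lower levels than control in sorted cells of the mouse kidney rudiment that lacked Tbx18 and in cells that expressed Tbx18 fused to VP16. Their probes were taken by gene name, which gave 8 of the 39429 probes present on both array designs and 4 of 27300 gene names. The genes were chosen from their lower levels in both altered genotypes, so their differences between groups are described here and not tested. RNA came from GFP-positive cells of NMRI embryos at stage E11.5. The 3 control pools were Tbx18(GFP/+) and the 3 Tbx18 null pools Tbx18(GFP/GFP), so both carried GFP in the Tbx18 locus. The 2 Tbx18VP16 pools were Tbx18(cre/+);Hprt(Tbx18VP16), in which a Tbx18VP16-GFP cassette behind the ubiquitous CAG promoter at Hprt was expressed where the Cre allele of Tbx18 was or had been active. Every group carried at least 1 altered Tbx18 allele, and none was wild type. Each array held a pool of around 100000 cells from embryos of both sexes, collected over several sorts.

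Tbx18, a transcription factor of the T-box family, marks the mesenchyme around the early ureter. There it is needed for smooth muscle formation and is known mainly as a repressor. VP16 is a viral domain that activates transcription when joined to a DNA-binding protein. The products of the 4 genes belong to unrelated families. Sntg1 encodes gamma-1-syntrophin, an adaptor protein of the dystrophin-associated complex that is known mainly from neurons. Hopx encodes a small homeodomain protein that does not bind DNA and that restrains serum response factor in the heart. Car3 encodes a cytosolic carbonic anhydrase of low activity that is abundant in skeletal muscle, fat and liver. Asb18 encodes a protein of ankyrin repeats with a SOCS box, the module through which such proteins join Cullin 5 ubiquitin ligases.

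The probes of Asb18 differed from each other in the null, so their sequences are shown first. All are 60 bases long and lie on the minus strand of chromosome 1 in the mm9 build, and the names give the base of the reference transcript at which each probe starts. Read from their first base, none holds a stop codon except in the last codon of the probe at base 1344, which is in capitals and marks the end of the reading frame. Asb18 base 138, at chr1:91910955-91911014, and Asb18 base 267, at chr1:91892788-91892847, thus sit early in the transcript, and Asb18 base 1344, at chr1:91849253-91849312, sits at its coding end.
Asb18 base 138: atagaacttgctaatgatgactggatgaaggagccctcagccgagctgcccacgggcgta
Asb18 base 267: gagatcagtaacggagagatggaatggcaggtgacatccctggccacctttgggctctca
Asb18 base 1344: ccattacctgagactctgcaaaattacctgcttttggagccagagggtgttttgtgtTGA

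The remaining genes had probes at fewer places. Both Sntg1 probes lie on the minus strand of chromosome 1 (chr1:8353309-8353368 and chr1:8352992-8353051) and both Hopx probes on the minus strand of chromosome 5 (chr5:77516624-77516683 and chr5:77516460-77516519). The only Car3 probe lies on the plus strand of chromosome 3 (chr3:14871781-14871840) and starts at base 936 of its transcript. Sequence and coordinates of all 8 probes were the same in both array designs. Where a gene had several probes, the one of highest mean level stands for the gene, which for Asb18 is that at base 1344. No annotation of exons or UTRs in mm9 was used here.

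Levels are log2 signals relative to the 75th percentile of each array, so a difference of 1 is a change of 2-fold, and they serve to compare arrays for 1 probe and not probes with each other. The share of probes well above background was between 60.1% and 66.0% per array, and no spot was saturated. Tbx18 itself checked the labels of the null pools. Its level was -0.02, 1.20 and 1.04 in control pools 1, 2 and 3, -2.40, -1.34 and -2.36 in null pools, and 1.34 and 1.06 in Tbx18VP16 pools. It was thus low in every null pool (difference -2.77 ± 0.44, SE; limma adjusted p = 0.13, and 0.0447 with the pairs as a block). Tbx18VP16 differed from control by 0.46 ± 0.45 (SE), so Tbx18 does not check the Tbx18VP16 labels against control. All 11 marker genes listed for ureteric mesenchyme were well above background on all 8 arrays.

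In both altered genotypes the 4 genes lay below all control pools, with differences of -2.73 to -2.04 in the null and -4.04 to -2.63 in Tbx18VP16 on the log2 scale. In Tbx18VP16, Sntg1 and Asb18 were not well above background, so that the size of their differences is uncertain. With both at their bounds, described below, the range in Tbx18VP16 was -3.49 to -2.63. The medians were -2.60 in the null and, with the bounds, -3.16 in Tbx18VP16, against 0.01 and -0.13 over all 19132 genes tested. All 4 passed the filter on low signals. The groups did not overlap for 4 of 4 genes in either comparison, as the choice of the genes made likely. Over all genes, 3.76% had every null pool below every control pool, 29.2% every Tbx18VP16 pool below every control pool, and 2.2% both. Limma called 0% of the genes in null against control (5.51% at an unadjusted p under 0.05, and 0.46% at an adjusted p under 0.05 with the replicate block). In Tbx18VP16 against control it called 5.36% of all genes, made up of 3.16% lower and 2.2% higher. Both Tbx18VP16 pools were on an array design and slide that held no control or null pool. Design, slide and genotype therefore cannot be told apart in any difference or call of Tbx18VP16 given here. In pools of cells, fewer cells of a type and less RNA per cell cannot be told apart.

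**Figure D1:**
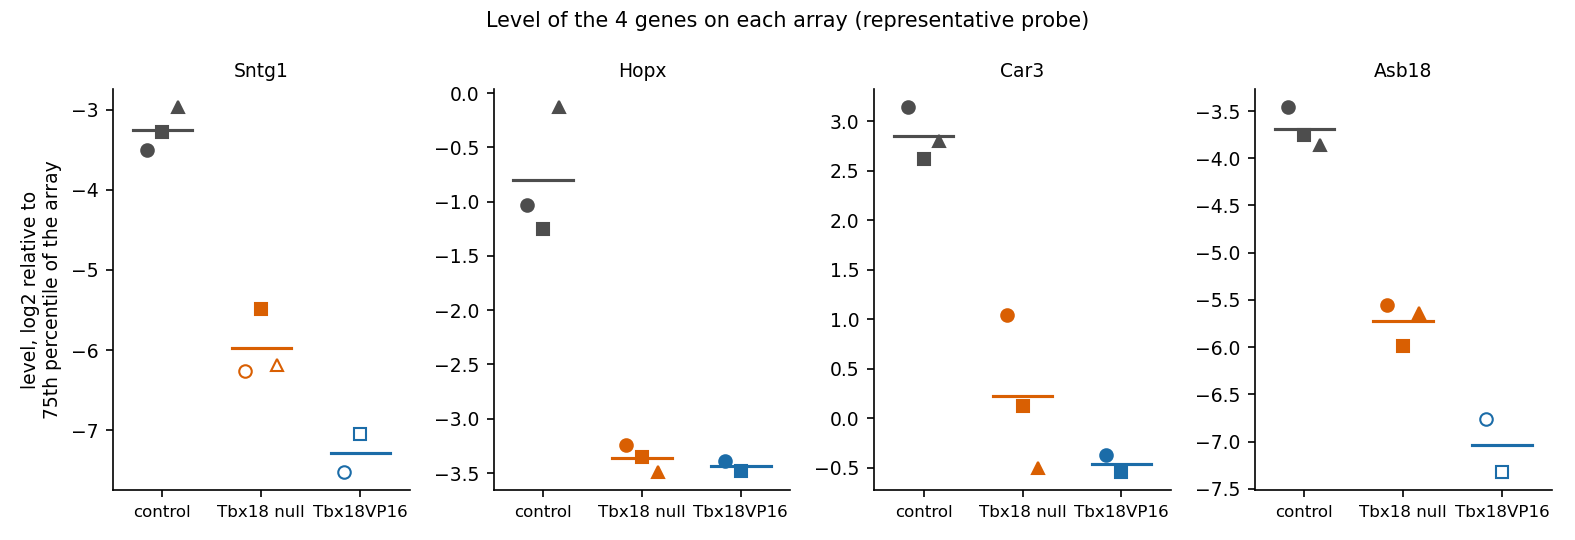
Level of Sntg1, Hopx, Car3 and Asb18 on each array (representative probe; y axis in log2 relative to the array's 75th percentile, on a separate scale per gene). Circles, squares and triangles are replicates 1, 2 and 3, open symbols are probes not well above background, and bars are group means; every altered pool lies below every control pool.

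Sntg1, the syntrophin gene, had levels of -3.50, -3.28 and -2.97 in control pools 1, 2 and 3, with a mean of -3.25 ± 0.27 (SD, n = 3). In the null pools it stood at -6.26, -5.49 and -6.18 (mean -5.98 ± 0.43, SD, n = 3), and only null pool 2 was well above background. In the Tbx18VP16 pools it stood at -7.52 and -7.05 (mean -7.28 ± 0.33, SD, n = 2). Neither Tbx18VP16 pool was well above background, so that the signal of this probe gives only an upper limit there. The difference of the measured signals from control was -2.73 ± 0.30 (SE) in the null, with 2 of the 3 null values not well above background. In Tbx18VP16 an approximate bound put the level 11.2-fold below control. It was counted against the lowest signal well above background, which is how each such bound below was set. Such a bound is not a minimum. Under another background correction (normexp) the Tbx18VP16 difference of Sntg1 was -1.94, against -3.49 at the bound. The second Sntg1 probe gave a difference of -2.50 in the null and, in Tbx18VP16, a bound of 8.53-fold lower. On this probe null pool 1, at -7.68, was the lowest null value and was not well above background, while pools 2 and 3 were at -5.55 and -5.18. Control pool 1, at -4.55, was likewise below control pools 2 and 3, at -3.32 and -3.04.

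Hopx had control levels of -1.03, -1.25 and -0.13, with a mean of -0.80 ± 0.59 (SD, n = 3). Control pool 3 was the highest, and the control group was the widest of the 3. The null pools were at -3.24, -3.35 and -3.49 (mean -3.36 ± 0.12, SD, n = 3) and the Tbx18VP16 pools at -3.39 and -3.48 (mean -3.43 ± 0.07, SD, n = 2). The 5 altered pools thus lay within a narrow band, and the probe was well above background on all 8 arrays. The differences from control were -2.56 ± 0.33 (SE) in the null, 14th from the lowest of the 19132 genes, and -2.63 ± 0.34 (SE) in Tbx18VP16. On the second Hopx probe, 164 bases further along the transcript, the control pools were at -2.38, -1.88 and -1.14 and the null pools at -4.38, -3.59 and -3.94. The Tbx18VP16 pools were at -5.17 and -5.30 there, below every null pool, which gave differences of -2.17 in the null and -3.43 in Tbx18VP16. The Hopx probes therefore differed in where they placed Tbx18VP16 relative to the null.

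Car3, the carbonic anhydrase gene, had control levels of 3.14, 2.62 and 2.80 (mean 2.85 ± 0.26, SD, n = 3). The null pools were the most widely spread group of the 4 representative probes, at 1.04, 0.13 and -0.50 (mean 0.23 ± 0.77, SD, n = 3). The Tbx18VP16 pools were at -0.37 and -0.54 (mean -0.45 ± 0.12, SD, n = 2), close to the lowest null pool. The differences from control were -2.63 ± 0.41 (SE) in the null, 12th from the lowest, and -3.31 ± 0.42 (SE) in Tbx18VP16. These correspond to levels 6.18-fold and 9.90-fold lower. Every Car3 value was well above background, with background-corrected signals of 8340 to 12200 in control and 1140 to 2130 in the altered pools. The SD between spots of the Car3 probe was 0.02 to 0.06 per array.

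The values of Asb18 differed by probe. At base 1344, the coding end, the control pools were at -3.46, -3.75 and -3.86 (mean -3.69 ± 0.21, SD, n = 3). The null pools were at -5.55, -5.99 and -5.64 (mean -5.73 ± 0.23, SD, n = 3), all well above background. The Tbx18VP16 pools were at -6.76 and -7.32, neither well above background. The null thus stood between control and Tbx18VP16 with no overlap. The difference was -2.04 ± 0.25 (SE) in the null, 29th from the lowest, and the bound for Tbx18VP16 was 8.05-fold lower than control.

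On the Asb18 probes shown above for the early transcript, null and control overlapped. At base 138 the control pools were at -5.26, -5.81 and -6.05 and the null pools at -4.97, -5.70 and -5.92, a difference of 0.18, with all 6 well above background. The Tbx18VP16 pools were at -6.86 and -7.32 there, not well above background, with a bound of 2.03-fold lower than control. At base 267 the controls were at -5.88, -6.29 and -6.91 (1 of 3 well above background) and the nulls at -4.91, -5.96 and -6.67 (2 of 3), a difference of 0.51. The Tbx18VP16 pools, at -6.37 and -6.18, lay among the controls on this probe and were not well above background. The low Asb18 value of the null therefore rested on the probe at base 1344 alone, whereas probes at bases 1344 and 138 were both low in Tbx18VP16.

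**Figure D2:**
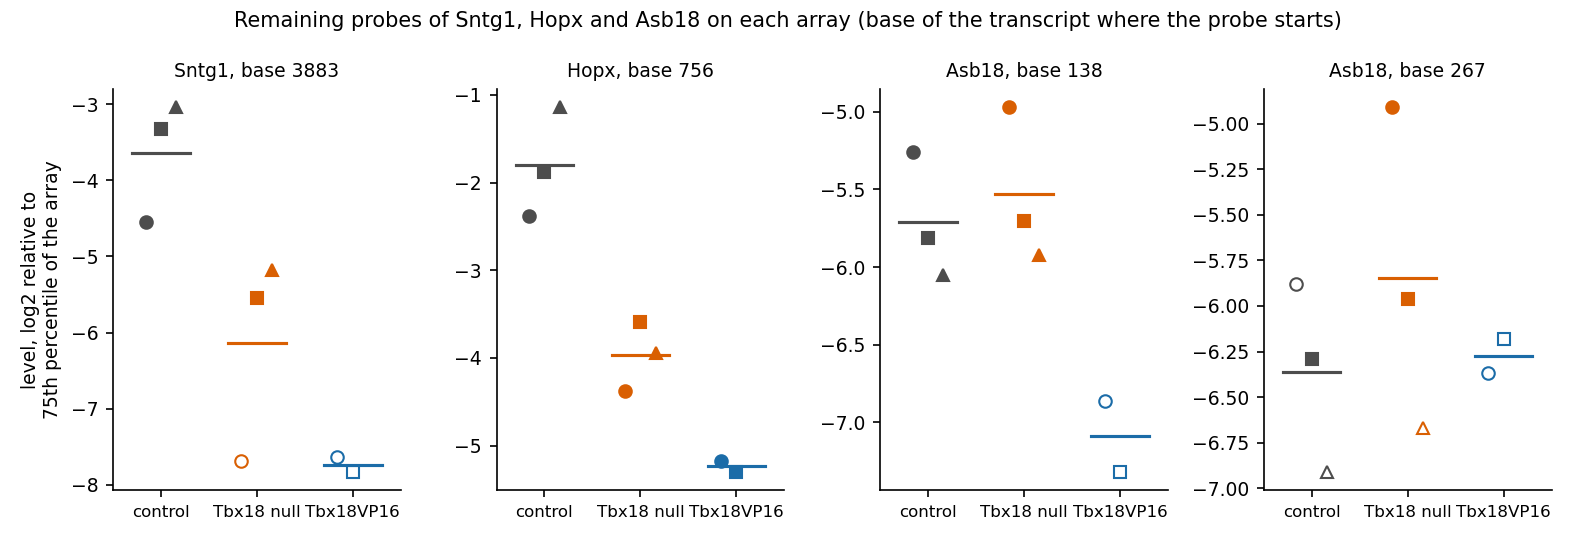
Levels on each array for the remaining 4 probes, named by the transcript base at which they start in the first array design (y axis in log2 relative to the array's 75th percentile, on a separate scale per probe; symbols as in the plot of representative probes). Sntg1 and Hopx lie below control in both altered genotypes, whereas null and control overlap for Asb18 at bases 138 and 267.

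Control and null pools of the same number were run side by side on the same slide, pairs 1 and 2 on 1 slide with 20 ng of RNA and pair 3 on another with 10 ng. On the representative probes the null lay below its own control in 3 of 3 pairs for each of the 4 genes. This was fixed in advance, since every null pool lay below every control pool there, as for 3.76% of all genes. For Sntg1 the differences in pairs 1, 2 and 3 were -2.76, -2.21 and -3.22. For Hopx they were -2.22, -2.10 and -3.35. For Car3 they were -2.10, -2.49 and -3.30, and for Asb18 -2.09, -2.25 and -1.78. On these probes pair 3 held the widest gap for Sntg1, Hopx and Car3 and the smallest for Asb18. On the second Sntg1 probe pair 3 instead held the smallest gap, with -3.13, -2.24 and -2.14. The lower level on both slides follows from the same lack of overlap, and slide and RNA amount moved together and cannot be told apart.

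Null pool 3 also stood apart in markers of other cell types. The summed linear level of 8 erythroid markers, as a multiple of the 75th percentile, was 539 in this pool, 5.47 and 25.7 in null pools 1 and 2, and 6.38 to 30.1 in control. That of 9 endothelial markers was 11.7 against 3.05 and 3.68 in the other nulls and 1.83 to 3.23 in control, and that of 11 ureteric epithelial markers 17.7 against 6.29 and 8.44, with 4.79 to 5.34 in control. Without null pool 3 the null differences were -2.62 for Sntg1, -2.49 for Hopx, -2.27 for Car3 and -2.08 for Asb18. The summed level of 5 platelet markers was 1.54 in null pool 3 and 0.0703 and 0.454 in null pools 1 and 2, against 0.0495 to 0.0944 in control. In the Tbx18VP16 pools it was 4.27 and 8.44, and 5 of 5 markers had a higher mean than in control.

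Markers of the kidney mesenchyme differed between groups as well. The summed level of 8 nephron progenitor markers was 28.0 to 42.5 in control, 47.8 to 60.5 in the null and 57.0 to 61.1 in Tbx18VP16, where limma called Wt1 (2.61; adjusted p = 0.00417) and Meox1 (3.9; adjusted p = 0.0162) higher. That of 11 ureteric mesenchyme markers was 55.5 to 80.0 in control, 36.2 to 62.3 in the null and 38.2 to 39.8 in Tbx18VP16. Bmp4, the largest term of this sum, stood at 5.45 in control, 4.63 in the null and 3.87 in Tbx18VP16. Of the 11 markers, 7 had a higher and 4 a lower mean in Tbx18VP16 than in control, with a median difference of 0.27. In the null 5 were higher and 6 lower. Limma called Foxf1 higher in Tbx18VP16 than in control (2.95, adjusted p = 0.0119). Of 7 renal stroma markers, Dcn (-3.56; adjusted p = 0.00165) and Lum (-5.28; adjusted p = 0.004) were called lower and Ntn1 (3.31; adjusted p = 0.00351) and Smoc2 (2.02; adjusted p = 0.0117) higher in Tbx18VP16. Their summed level was 56.4 to 76.9 in control, 42.6 to 57.4 in the null and 53.1 to 64.0 in Tbx18VP16. Except for Dcn, these calls were lost without either Tbx18VP16 pool, and those of Meox1 and Foxf1 also without control pool 2. The part of all these markers in the lower levels of the 4 genes was not tested.

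Car3 is abundant in muscle and fat, so markers of both tissues were looked at. Of 8 skeletal muscle markers, Myf5, Myog, Pax7, Myh3 and Myl1 were well above background on no array. The summed level of the list was 0.522 to 3.48 in control, 0.376 to 1.03 in the null and 1.11 to 2.14 in Tbx18VP16. Of 5 adipocyte markers, Adipoq, Cfd and Lep were well above background on no array, and the sum ranged from 0.0224 to 0.084 over all pools. No gene of either list was called in limma's fits of null or Tbx18VP16 against control. For Sntg1, which is known from neurons, all 7 markers of neurons and neural crest were tested. Their summed level was 1.05 to 1.25 in control, 1.04 to 1.79 in the null and 0.777 to 0.93 in Tbx18VP16. In that genotype the neuronal genes Tubb3 (-1.76; adjusted p = 0.0402) and Stmn2 (-2.12; adjusted p = 0.00927) were called lower. Both calls were lost when either Tbx18VP16 pool was left out, and that of Tubb3 also without control pool 2 or 3 or null pool 2 or 3.

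Between the altered genotypes, values are again a description, since the genes were chosen on these null and Tbx18VP16 arrays. For Asb18 at base 1344 the means were -7.04 in Tbx18VP16 and -5.73 in the null, with a bound of 1.96-fold lower. Both Tbx18VP16 pools lay below every null pool. For Sntg1 the means were -7.28 and -5.98 and the pools did not overlap either. As Sntg1 was well above background on 1 of 3 null arrays and neither Tbx18VP16 array, no fold is given. Over all genes, 30.4% had every Tbx18VP16 pool below every null pool.

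Hopx and Car3 overlapped between the altered genotypes. The difference of Tbx18VP16 from the null was -0.07 for Hopx, and its sign turned to 0.37 with arrays scaled on the 75th percentile of all spots and to 0.12 with quantile normalisation. The second Hopx probe gave -1.26 with no overlap. For Car3 the difference was -0.68. Tbx18VP16 pools were on an array design and slide of their own, so design, slide and genotype cannot be told apart in these comparisons or in those with control. The median over all genes of Tbx18VP16 against null was -0.13 as reported and 0.31 with all spots, so the values above move with the scaling by as much.

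The relatives of the 4 genes were taken from lists by known function. Their calls are to be read against the shares over all genes, 0% in the null and 5.36% in Tbx18VP16 against control. At an unadjusted p under 0.05, limma's shares over all genes were 5.51% in the null and 22.3% in Tbx18VP16 against control. With the replicate number as a block, for which only control and null pools were shown to pair, more of the relatives passed, as given with each list. That fit called 88 of all 19132 genes in the null, 3244 in Tbx18VP16 against control and 2870 in Tbx18VP16 against the null. In the dystrophin-associated complex, the 17 tested genes other than Sntg1 had medians of -0.05 in the null and -0.27 in Tbx18VP16, and limma called 0 of 17 in either comparison (2 and 3 at an unadjusted p under 0.05). With the replicate block 0 were called in the null and 2 in Tbx18VP16, among them the syntrophin gene Sntg2 (2.92; adjusted p = 0.00825). Of these, Sgce, a sarcoglycan gene, had the smallest p in the null (-1.03; adjusted p = 0.422). Sgca, another sarcoglycan gene, had it in Tbx18VP16 (0.89; adjusted p = 0.137).

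For Hopx, the list of 10 known partners and cofactors gave 0 calls in any comparison (2 in the null, 1 in Tbx18VP16 against control and 1 against the null at an unadjusted p under 0.05). Gata6, which encodes a zinc-finger transcription factor, had differences of -1.71 in the null (adjusted p = 0.278) and -1.56 in Tbx18VP16 (adjusted p = 0.0566). Gata4, its relative, was at -0.96 in the null (adjusted p = 0.53). With the replicate block, Gata6 (-1.73; adjusted p = 0.0253) and Myocd, a cofactor of serum response factor (-1.59; adjusted p = 0.0138), passed in Tbx18VP16 against control, and Myocd also against the null (-2.23; adjusted p = 0.00877). Myocd was well above background on 2 null arrays and on no other. Of 11 smooth muscle genes that serum response factor is known to activate, 9 were tested, and 0 were called against control (0 in the null and 2 in Tbx18VP16 at an unadjusted p under 0.05). With the replicate block, Cnn1 (1.52; adjusted p = 0.038) and Vcl (0.94; adjusted p = 0.044) passed in Tbx18VP16 against control. Against the null, 2 of 9 were called higher in Tbx18VP16 without the block, where limma called 3.54% of all genes (2.27% lower and 1.27% higher, and 21.4% at an unadjusted p under 0.05). They were Cnn1, the smooth muscle calponin gene (1.76; adjusted p = 0.0458), and Vcl, which encodes vinculin (1.15; adjusted p = 0.0391). Each held in 7 of 15 alternative settings, and both calls were lost without any 1 null pool, without control pool 2 or without either Tbx18VP16 pool.

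Among carbonic anhydrase genes, 12 of 16 were tested, and Car3 had the lowest difference in both genotypes. The other 11 had medians of 0.04 in the null and -0.63 in Tbx18VP16, with 0 and 1 called (3 and 5 at an unadjusted p under 0.05). Car7, another cytosolic enzyme, was called lower in Tbx18VP16 (-1.63 ± 0.37, SE; adjusted p = 0.0445) and stood at -0.07 in the null. That call held in 6 of 15 alternative settings and was lost without either Tbx18VP16 pool, control pool 1 or 2 or null pool 2 or 3. With the replicate block 4 of the 11 passed in Tbx18VP16, which were Car7 (-1.84), Car1 (-1.38), Car4 (-1.21) and, higher, Car12 (1.73), with adjusted p of 0.00781 to 0.025. In the null the smallest p belonged to Car14 and Car12, genes of membrane-bound enzymes, at 0.99 and 1.24 (adjusted p = 0.348 and 0.623). Car2 and Car1, the nearest tested neighbours of Car3 on its chromosome, had null differences of 0.70 ± 1.15 and -0.15 ± 0.40 (SE), against -2.63 for Car3. In Tbx18VP16 Car2 stood at -0.44 ± 1.21 and Car1 at -1.13 ± 0.41 (SE) without the block.

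In the ASB family and its ligase subunits, 18 of 22 genes were tested, and the 17 other than Asb18 had medians of -0.11 in the null and -0.26 in Tbx18VP16. Limma called 1 of the 17 in Tbx18VP16 and 0 in the null (4 and 1 at an unadjusted p under 0.05). The called gene was Asb4, which stood at 3.70 in control, 1.83 in the null and 1.17 in Tbx18VP16. Its difference in Tbx18VP16 was -2.53 ± 0.39 (SE; adjusted p = 0.0131), lost only when either Tbx18VP16 pool was left out among the 15 alternatives run. In the null it was -1.87 ± 0.38 (SE; adjusted p = 0.22, and 0.0344 with the replicate block). With the replicate block Asb2 passed as well in Tbx18VP16 (-1.30; adjusted p = 0.0281). The ligase subunit genes Elob, Eloc, Cul5 and Rnf7 had null differences of -0.02, 0.12, 0.06 and -0.06.

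**Figure D3:**
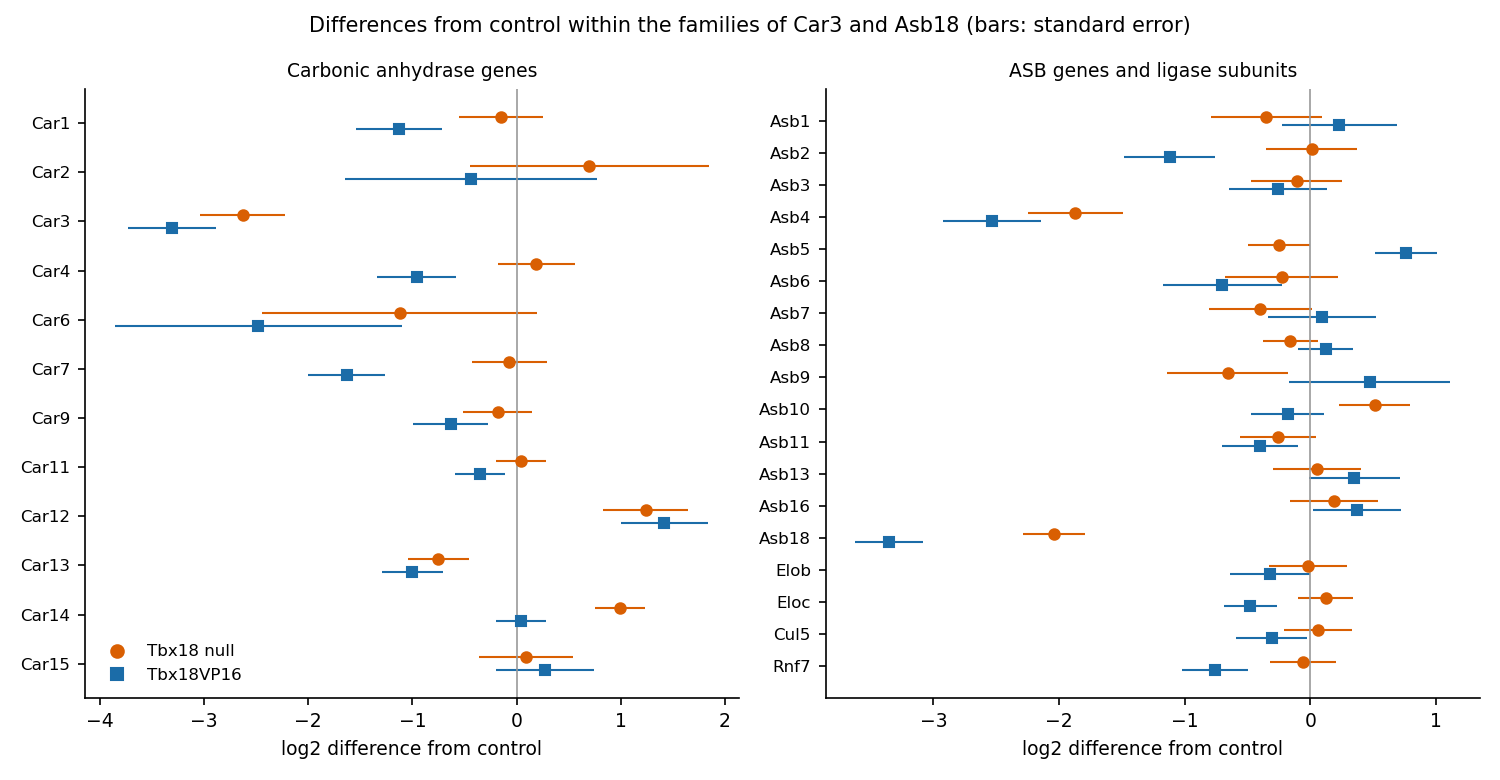
Log2 difference from control of the tested carbonic anhydrase genes and of the tested ASB genes with their ligase subunits, for Tbx18 null (circles) and Tbx18VP16 (squares), with the standard error of the fit. Car3, Asb18 and Asb4 lie far to the left in both genotypes; the same control arrays enter both differences.

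Of the 8 nearest tested neighbours of the members, 2 were called in Tbx18VP16 against control, where 5.36% of all genes were, and 0 in the null. Spink2, with 5 genes between it and Hopx, was lower in Tbx18VP16 (-1.56 ± 0.31, SE; adjusted p = 0.0291) and at -0.93 in the null (adjusted p = 0.572). Ackr3, a chemokine receptor gene with 4 genes between it and Asb18, was lower in Tbx18VP16 (-1.16 ± 0.25, SE; adjusted p = 0.0405) and at -0.85 in the null (adjusted p = 0.53). These calls held in 8 and 4 of 15 alternative settings, and both were lost without either Tbx18VP16 pool, without control pool 1, 2 or 3 and without null pool 2. Gbx2, on the other side of Asb18, stood at 2.90 ± 0.70 (SE; adjusted p = 0.0553) in Tbx18VP16. Thegl, on the other side of Hopx, stood at -0.77 ± 1.27 (SE) in the null. In Tbx18VP16 it stood at -2.98 ± 1.33 (SE; limma adjusted p = 0.235), against -2.63 for Hopx. The neighbours of Sntg1, Pcmtd1 and Rrs1, with 11 and 10 genes between, stood at 0 and -0.13 in the null and -0.39 and 0.47 in Tbx18VP16.

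Within groups the 4 genes did not share one order of pools. Hopx was highest in control pool 3 (0.67 above its group mean), Car3 in control pool 1 (0.29 above). In the null Car3 was highest in pool 1 (0.82 above the mean) and Sntg1 in pool 2 (0.49 above). Over all 8 arrays, Pearson's r between the members' levels was 0.889 to 0.948, with control and altered pools far apart for each gene. After the group means were taken out it was -0.931 to 0.349 over the same arrays.

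The genes most like the members over the 8 arrays were found by Pearson's r of their levels among the 19132 genes. S1pr3, a receptor gene for sphingosine-1-phosphate, was closest to the mean of the 4 (r = 0.991). Its control pools were at 1.98, 2.11 and 2.15, its null pools at 0.94, 0.76 and 0.45 and its Tbx18VP16 pools at 0.35 and 0.38. Sncaip, Lhfpl2, Otor and Gpm6b followed (r = 0.987, 0.987, 0.984 and 0.980). Otor, which encodes a small secreted protein known from the inner ear, was also among the 3 closest to Sntg1 (r = 0.978) and to Hopx (r = 0.980), with differences of -2.0 in the null and -2.45 in Tbx18VP16.

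Each member also had close genes of its own. For Sntg1 these were Trabd2b (r = 0.981) and Gad2 (r = 0.975), a glutamate decarboxylase gene with differences of -1.86 in the null and -2.96 in Tbx18VP16. For Hopx they were Sphk1 (r = 0.983), a sphingosine kinase gene at -3.64 and -3.61, and Plpp1 (r = 0.981). Car3 was closest to Bmper (r = 0.996), which encodes a secreted modulator of BMP signalling, at -1.15 and -1.47, followed by S1pr3 and Sncaip. Asb18 was closest to Col25a1 (r = 0.984), a transmembrane collagen gene at -2.89 and -4.90, then Prrg1 and Atg16l2 (r = 0.980 and 0.977). These coefficients describe 8 arrays in 3 groups, and a gene that separates the groups gives a high value.

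**Figure D4:**
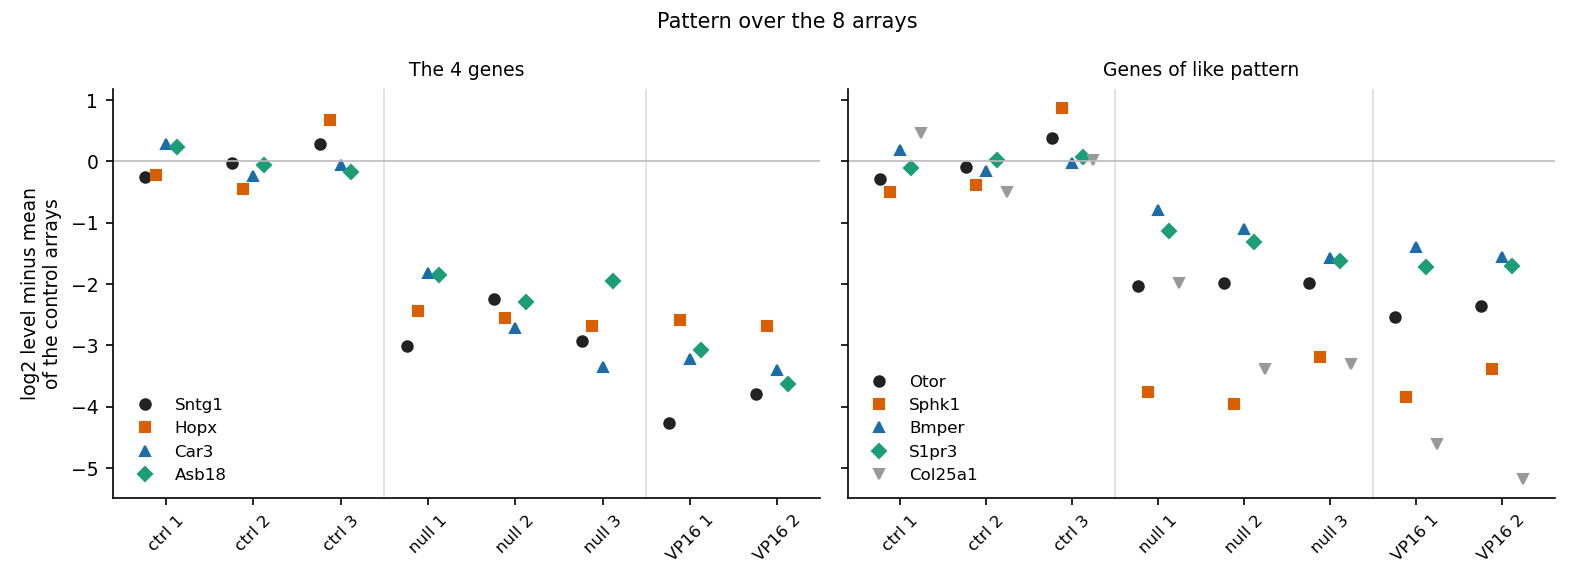
Log2 level minus the mean of the control arrays on each of the 8 arrays, for the 4 members (left) and for 5 genes of like pattern (right). Grey lines part the groups; all altered pools lie below 0 for each gene, with Bmper and S1pr3 nearest to the control level.

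Sequence before the start of transcription was at hand in the RefSeq table (GRCm38.p6) for Asb18 and, with a pair of starts, for Hopx. These windows of 250 bases are shown because the members were low together and Tbx18 binds T-box elements. They lie on the minus strand at chr1:90014667-90014916 for Asb18, chr5:77115124-77115373 for the upstream Hopx start and chr5:77095268-77095517 for the downstream one.
Asb18 start: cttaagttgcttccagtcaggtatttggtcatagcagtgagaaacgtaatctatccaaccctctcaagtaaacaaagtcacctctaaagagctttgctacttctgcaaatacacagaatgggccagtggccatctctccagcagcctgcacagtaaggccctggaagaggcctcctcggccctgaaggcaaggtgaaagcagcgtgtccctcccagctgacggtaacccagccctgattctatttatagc
Hopx upstream start: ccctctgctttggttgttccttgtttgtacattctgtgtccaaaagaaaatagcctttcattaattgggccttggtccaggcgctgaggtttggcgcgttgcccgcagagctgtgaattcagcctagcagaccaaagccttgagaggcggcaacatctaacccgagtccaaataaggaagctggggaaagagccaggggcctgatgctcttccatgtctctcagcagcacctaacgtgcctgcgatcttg
Hopx downstream start: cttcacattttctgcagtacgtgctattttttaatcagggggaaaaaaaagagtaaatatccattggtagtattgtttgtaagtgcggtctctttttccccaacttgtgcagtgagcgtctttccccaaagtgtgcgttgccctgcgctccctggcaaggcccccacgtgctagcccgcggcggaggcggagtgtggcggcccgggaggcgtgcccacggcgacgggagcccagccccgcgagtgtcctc

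The T-box element AGGTGTGA and its core GTGTGA, which lies within it, were searched for on both strands. Neither was found in the 3 windows, where nothing is in capitals for that reason. Among 32851 promoters of the same length, 1.12% held the longer motif and 12.29% the core. A missing match says only that these letters are not in these windows.

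Of the 8 probes, only that of Car3 held the element, on the reverse strand. The 30 bases around it lie at chr3:14871811-14871840 in mm9, with the match in capitals, and 0.25% of all 39429 probes hold AGGTGTGA on either strand. The match is a description of the sequence that the probe reads, and whether Tbx18 binds there was not tested.
Car3 probe: ctcacccagaagcatgaattTCACACCTaa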

How the data were processed

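RNA of 8 pools was measured on 1-colour arrays, 3 control, 3 Tbx18 null and 2 Tbx18VP16, grouped by the labels. Spot intensity values had been background-corrected by the authors with Agilent Feature Extraction 10.7.3.1, per the file headers. The authors' deposited value table, also intensity on a linear scale, served as an alternative. From the deposited scanner files, log2 of the processed signal was averaged over the 4 spots of a probe, without outlier spots (1.86% to 2.55% of the spots of probes on both designs), and the 75th percentile of the array was subtracted. Probes entered the test when 3 or more of the 6 control and null arrays, or 2 or more of all 8, showed them well above background. The probe of highest mean stood for its gene, which left 19132 genes. The null comparison used limma 3.58.1 (R 4.3.3) on 6 arrays, and those of Tbx18VP16 a fit of 3 group means on 8 arrays, with two-sided Benjamini-Hochberg adjusted p values and a threshold of 0.05. Each array held 1 pool, and p values measure the spread between these pools.

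A bound sets the brighter group's mean against the dim probe's signal, raised on each array to its lowest signal well above background. Some probes above that signal were not well above background, so a bound is approximate and not a minimum. With normexp background, Sntg1 and Asb18 differed from control in Tbx18VP16 by less than their bounds. Deviations from group means correlated at 0.792, 0.686 and 0.405 between control and null pools of the same number (-0.725 to 0.301 otherwise), so these numbers pair pools. The fits were tested on simulated data. Genes were named besides the 4 members and Tbx18 as follows: up to 4 called genes per list by smallest p, or up to 2 where none was called, the 3 genes of highest r with each member and 5 with their mean, and the nearest tested gene on each side of a member in RefSeq order (GRCm38.p6). Not every gene that this rule takes is reported. The members, lists and rules were chosen with earlier results of these data known. The number of arrays limits the precision.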

Additional observations from a re-analysis of the deposited data

How the results depend on the processing

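The differences of the 4 genes from control stayed below 0 in all 20 alternatives of the null comparison and all 17 of the Tbx18VP16 comparison. These alternatives reuse the arrays on which the genes were chosen as low, so the constant sign is a description and no test. In Tbx18VP16, values of Sntg1 and Asb18 are differences of signals not well above background there. With normexp background the null differences were -1.19 for Sntg1, -2.07 for Hopx and -0.84 for Asb18, and those of Tbx18VP16 -1.94 for Sntg1 and -1.63 for Asb18. With the mean of all probes Asb18 came to -0.45 ± 0.33 (SE) in the null and -1.55 in Tbx18VP16, and Hopx to -3.03 in Tbx18VP16. Scaling on the 75th percentile over all spots, chosen after seeing the data, gave -3.59, -2.18 and -2.90 in Tbx18VP16 for Sntg1, Hopx and Asb18, and moved the median of all genes from -0.13 to 0.32. Leaving out 1 array gave Asb18 -3.63 to -3.07 in Tbx18VP16.

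Tbx18VP16 against null, Hopx turned to 0.37 (all spots), 0.12 (quantile and the authors' deposited table) and 0.06 (replicate block). Asb18 was at -1.31 as reported and without a filter, -0.87 with all spots, -0.79 with normexp, -1.10 with the mean of all probes and -1.59 to -1.03 without 1 array. Sntg1 was at -1.31 as reported and -1.29 with the replicate block.

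Genes called in the null were 0 as reported, 4 with normexp, 13 without a filter, 22 when above background on every array of a group, 88 with the replicate block, 72 in the fit of all 8 arrays, 7 with the slide as a block and, chosen after seeing the data, 1 when above background on 3 of the 6 arrays, or 191 with the block. Leaving out 1 array gave 0 to 26, the latter without null pool 1. For Tbx18VP16 against control the count of 1025 became 623 (normexp), 3244 (block) and 39 to 1762 (without 1 array: 1762 and 639 without null pools 1 and 2, 306 without control pool 2, 53 and 39 without Tbx18VP16 pools 1 and 2). Of the calls, 421 were higher and 604 lower, against 1124 and 238 with all spots, 531 and 538 with quantile and 541 and 493 with the authors' deposited table. Against null, 678 became 381, 2870 and 0 to 680 (319 without control pool 2, 153 and 405 without null pools 2 and 3, 7 and 0 without Tbx18VP16 pools 1 and 2). The cause was not tested.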
